A study of Mus musculus with 36 samples.

Results

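Immediate early genes are transcribed within minutes of neuronal firing, without new protein synthesis. Here 37 genes listed as activity-induced immediate early genes were followed through bulk RNA sequencing of mouse hippocampus. Whether each of them meets that definition was not tested. They were chosen by name, as genes known to be induced by activity, and all 37 stood among the 24421 gene symbols of the tables. They comprised 7 subunits of the transcription factor AP-1 and related leucine zipper factors, 4 Egr zinc finger factors, 6 other inducible transcription factors, 6 regulators of kinase signalling, 6 synaptic and secreted effectors and 8 other early-response genes. In hippocampal neurons, calcium entering through NMDA receptors and voltage-gated channels activates kinases that phosphorylate CREB, serum response factor and its partners, and these factors switch the genes on. The AP-1, Egr, Npas4 and Nr4a proteins then drive a second wave of transcription, while Arc, Homer1, Bdnf and Nptx2 act on synapses. Many of these RNAs are short-lived, so their level in tissue mostly reflects the period just before it was taken.

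The 6 groups each held 6 libraries, 3 from females and 3 from males. The aging arm was C57BL/6, with a young group aged 8 months and 2 groups aged 18 months, of which 1 was untreated (old) and the other received a nanoligomer. The transgenic arm was 4 months old throughout: littermates without the transgenes (called non-carrier in the labels), APP/PS1 mice, an amyloid model, and APP/PS1 mice given nanoligomer. The series title names NF-κB and NLRP3 as what was to be downregulated, whereas the sources used here do not give the APP/PS1 line and its promoter, the dose or the duration. Libraries are named by group, sex and number (young F1 to young M3), and because the labels do not say what separates the libraries of a group, p-values measure the spread between these libraries. Reads ran from 27.6 to 46.3 M per library, and APP/PS1 nanoligomer F3, with 0.913 M reads on 9509 genes, was left out, which leaves 35 libraries. Markers of hippocampal CA1, CA3 and CA2 neurons and of dentate gyrus granule cells were present in every library, with no marker at 0. The summed level of 10 striatum markers was above 500 CPM (reads per 1000000 reads of the library) in 5 libraries, at 2607 CPM in old nanoligomer F3, 2370 in APP/PS1 F1, 1470 in young M2, 1281 in APP/PS1 nanoligomer M2 and 696 in old M3, and at most 418 in the other libraries. Bulk tissue cannot tell fewer cells of a type from less RNA per cell.

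Per kilobase of exon, Arc and Egr1 were the most abundant of the 37 RNAs. Arc, whose protein links to the cytoskeleton of dendritic spines and drives removal of AMPA receptors, averaged 72.4 RPKM (CPM per kilobase of exon) over the 35 libraries and ranged from 16.3 to 283. Egr1, a zinc finger factor widely used as an activity marker, averaged 66.4 RPKM with a range of 22.7 to 204. The kinase Plk2 followed at 35.8 RPKM and the AP-1 subunit Junb at 34.95 RPKM, while Fos itself averaged 9.71 RPKM and ranged from 1.73 to 55.6. At the low end were Inhba, a subunit of activin, at 0.507 RPKM, and the transcription factors Maff and Atf3 at 0.491 and 0.324. Atf3 was at 0 in 1 library, APP/PS1 M3. Homer1 and Bdnf are counted per gene, so the short activity-induced Homer1 transcript and the activity-dependent Bdnf promoters are not separated from the other transcripts.

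Within groups the 37 genes varied far more than most genes. The coefficient of variation between the libraries of a group (SD divided by mean, median over the 6 groups) had a median of 0.352 over the 37 genes, against 0.131 over all 14784 genes with a mean of at least 1 CPM. The most variable were Egr2 at 0.594, Fos at 0.588 and Arc at 0.579. The steadiest were the GTPase Rheb at 0.076 and Plk2 at 0.114, both of which are expressed at rest as well as after activity. Old nanoligomer M1 had the highest levels: 34 of 37 genes lay above their median over the 35 libraries, and Fos stood at 131 CPM against 45.3 CPM in the next highest library, old M3. APP/PS1 F1, with 2370 CPM of striatum markers, had the lowest: only 3 of 37 genes lay above that median, and the mean deviation was −0.82 on the log2 scale against 1.12 in old nanoligomer M1.

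**Figure D1:**
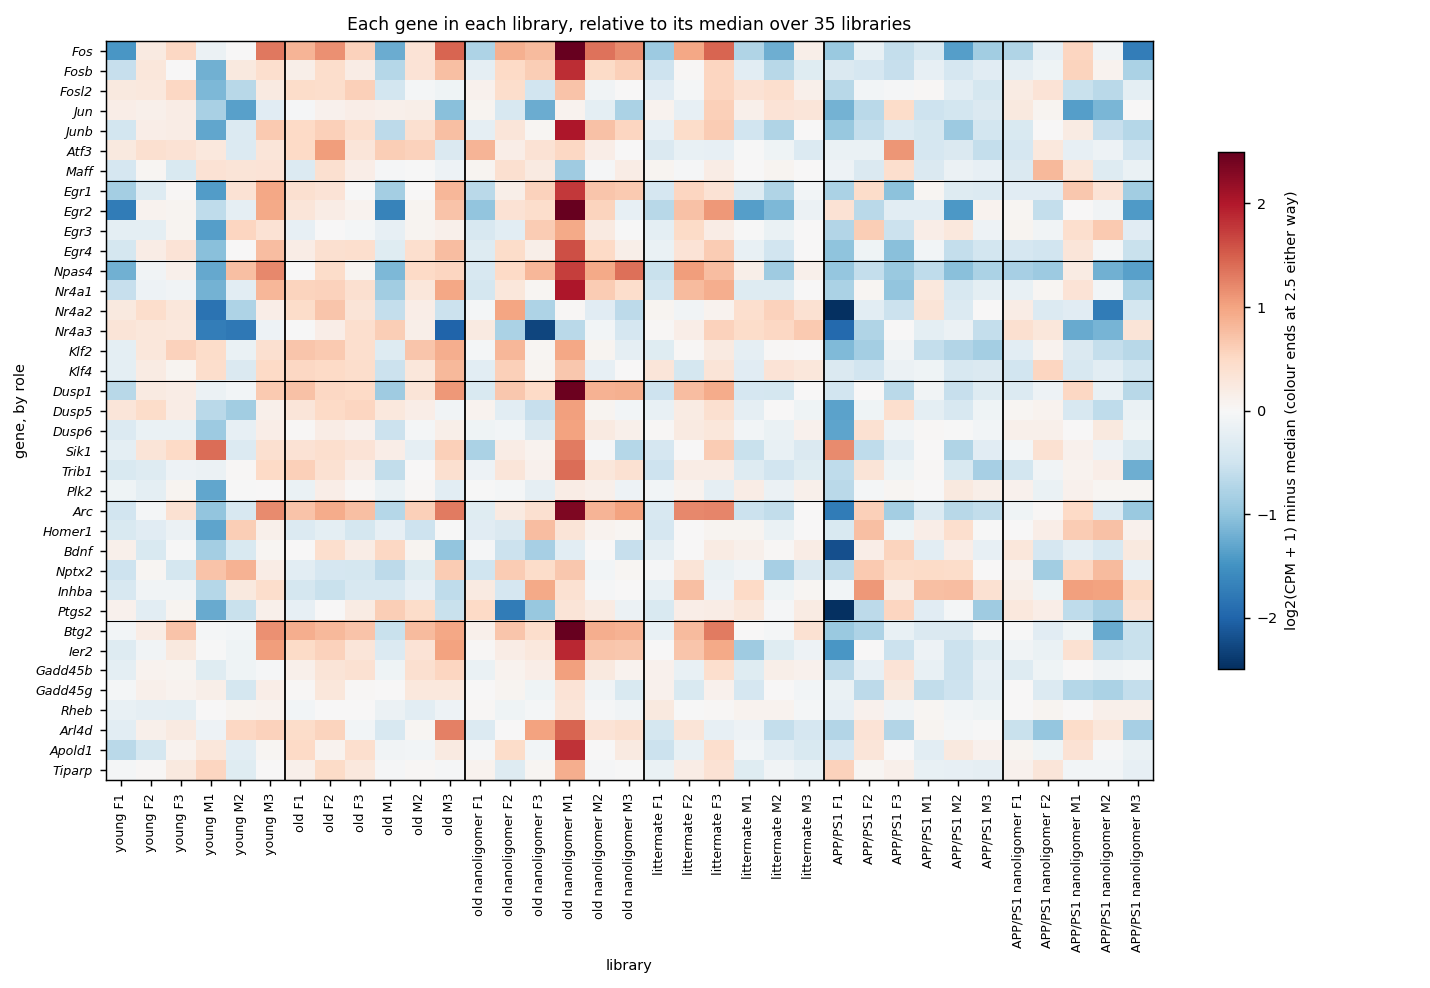
Level of each of the 37 genes (rows, grouped by role) in each of 35 libraries (columns, grouped by treatment group), as log2(CPM + 1) minus the gene's median over all libraries; red is above and blue below the median. Old nanoligomer M1 is red in nearly all rows (34 of 37 genes above the median), and APP/PS1 F1 is blue in nearly all (3 of 37 above).

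Most of the genes varied together between libraries of the same group. Each gene was expressed as its deviation from the mean of its group and sex, and its correlation with Fos over the 35 libraries was tested by permuting libraries within group and sex, with Benjamini-Hochberg adjustment over 36 relations. 22 of the 36 other genes correlated with Fos at an adjusted p below 0.05, all of them positively. The closest was Dusp1, a phosphatase that inactivates MAP kinases, with Pearson r = 0.95 and Spearman rho = 0.96 (permutation p = 1e-05 for both, the smallest the resampling can give). The orphan nuclear receptor Nr4a1 followed at r = 0.89, then Egr2 at 0.87, and Junb, Fosb and Arc at 0.85 each. Without the 2 libraries farthest from the median of Fos, old M1 and littermate F1, r was 0.93 for Dusp1, 0.84 for Nr4a1 and 0.79 for Arc, and 21 genes were called. Within the aging arm alone r was 0.96 for Dusp1 and 0.88 for Nr4a1, and 18 genes were called over 18 libraries. Within the transgenic arm r was 0.94 and 0.90, and 11 genes were called over 17 libraries. These correlations are between RNAs of the same libraries, which share dissection, depth and handling. Since most of the genes move together, counts of genes in the comparisons below are not counts of independent results.

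The promoters of Fos and of the 4 genes that followed it most closely and have a RefSeq promoter entry are printed here as examples. The motif bound by CREB, the cAMP response element (CRE), reads TGACGTCA, and its core TGACG is also bound; the CArG box is the site of serum response factor. Each line gives the 250 bases before the transcription start, from RefSeq on GRCm38.p6, 5′ to 3′ on the gene's own strand, with every CRE, CArG box and TGACG core (on either strand, CGTCA when reversed) in capitals.
Fos, chr12:85473640-85473889, plus strand: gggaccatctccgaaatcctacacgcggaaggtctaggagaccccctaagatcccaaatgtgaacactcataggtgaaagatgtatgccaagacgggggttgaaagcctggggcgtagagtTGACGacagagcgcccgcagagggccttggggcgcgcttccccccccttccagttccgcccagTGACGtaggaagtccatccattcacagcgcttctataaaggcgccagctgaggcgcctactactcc
Dusp1, chr17:26508473-26508722, minus strand: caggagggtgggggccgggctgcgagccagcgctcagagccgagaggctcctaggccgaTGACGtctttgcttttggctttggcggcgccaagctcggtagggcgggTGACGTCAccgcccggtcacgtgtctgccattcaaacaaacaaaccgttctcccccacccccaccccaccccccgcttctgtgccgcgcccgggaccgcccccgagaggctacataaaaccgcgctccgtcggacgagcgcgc
Nr4a1, chr15:101266596-101266845, plus strand: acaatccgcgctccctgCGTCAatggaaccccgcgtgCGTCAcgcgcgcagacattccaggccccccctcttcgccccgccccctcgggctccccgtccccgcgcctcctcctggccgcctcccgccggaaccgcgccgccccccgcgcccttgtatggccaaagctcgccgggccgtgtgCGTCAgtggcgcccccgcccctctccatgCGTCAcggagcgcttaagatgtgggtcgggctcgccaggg
Egr2, chr10:67537619-67537868, plus strand, 1 of 5 listed starts: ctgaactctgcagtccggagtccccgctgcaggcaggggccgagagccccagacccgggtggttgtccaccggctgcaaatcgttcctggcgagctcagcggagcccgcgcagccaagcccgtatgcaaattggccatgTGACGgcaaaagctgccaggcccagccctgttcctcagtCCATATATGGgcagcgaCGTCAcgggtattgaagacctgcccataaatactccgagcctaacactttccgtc
Junb, chr8:84978749-84978998, minus strand: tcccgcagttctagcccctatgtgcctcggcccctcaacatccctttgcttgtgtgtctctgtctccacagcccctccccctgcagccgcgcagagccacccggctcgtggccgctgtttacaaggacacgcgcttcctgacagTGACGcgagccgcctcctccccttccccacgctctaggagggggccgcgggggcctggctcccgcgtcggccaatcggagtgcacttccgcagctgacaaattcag
Fos (GRCm38 chr12:85473890-85477273) held TGACG cores 129 and 66 bases before its start. Sequence more than 250 bases before a start was not read for any gene, so sites there would be missed. Dusp1 held a complete CRE 143 bases before its start, and Nr4a1 held 4 cores, all on the reverse strand. Egr2 carried a CArG box 72 bases before the start printed here, between 2 cores, and Junb a single core 106 bases before its start. The printed Egr2 start was picked from the 5 listed for its number of motifs, cores first. It need not represent the other starts. Promoter windows of 300 bases, 250 before to 50 after the start, were listed for 30 of the 37 genes, with 43 windows in all. A complete CRE lay in 5 of the 43 windows (11.6%; Arl4d, Btg2, Dusp1, Maff and Plk2), against 588 of all 32851 RefSeq windows (1.79%). The CArG box lay in 5 windows of 2 genes, Dusp5 and Egr2 (11.6%, against 1.63%). The core TGACG, searched on both strands and counting those inside a CRE, lay in 26 windows of 23 genes (60.5%, against 20.8%); this search was chosen after seeing the others. Several windows overlap where a gene has more than 1 start, and a match of letters is a description of the sequence, not a measured site.

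Jun, Nr4a3, Bdnf and Ptgs2 were not called with Fos. Their r with Fos was −0.22, −0.34, −0.15 and −0.12, and none had an adjusted p below 0.05. They formed a set with Dusp5, seen after the correlations among the genes had been computed. Nr4a3, an orphan nuclear receptor of the same family as Nr4a1, had r = 0.87 with the AP-1 subunit Jun, 0.77 with the neurotrophin gene Bdnf, 0.72 with the cyclooxygenase gene Ptgs2 and 0.63 with Dusp5 (adjusted permutation p of 0.0036, 0.0018, 0.0149 and 0.0149 over 36 relations; by Spearman rho the adjusted p for Dusp5 was 0.0516). Without old M3 and old nanoligomer F3, the libraries farthest from the median of Nr4a3, these r were 0.83, 0.76, 0.78 and 0.65. Nr4a3 and Nr4a1 had r = −0.21, and Jun and Junb r = 0.06. With Homer1, a postsynaptic scaffold that was itself called with Fos (r = 0.41, adjusted permutation p = 0.0463), r was 0.92 with Egr3, 0.77 with Inhba and 0.76 with Egr1 (adjusted permutation p of 0.0011, 0.0182 and 0.0154), and 7 of 36 genes were called; Egr1 and Egr3 were also called with Fos, at r = 0.83 and 0.53. Bdnf and Ptgs2 had r = 0.90 with each other.

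**Figure D2:**
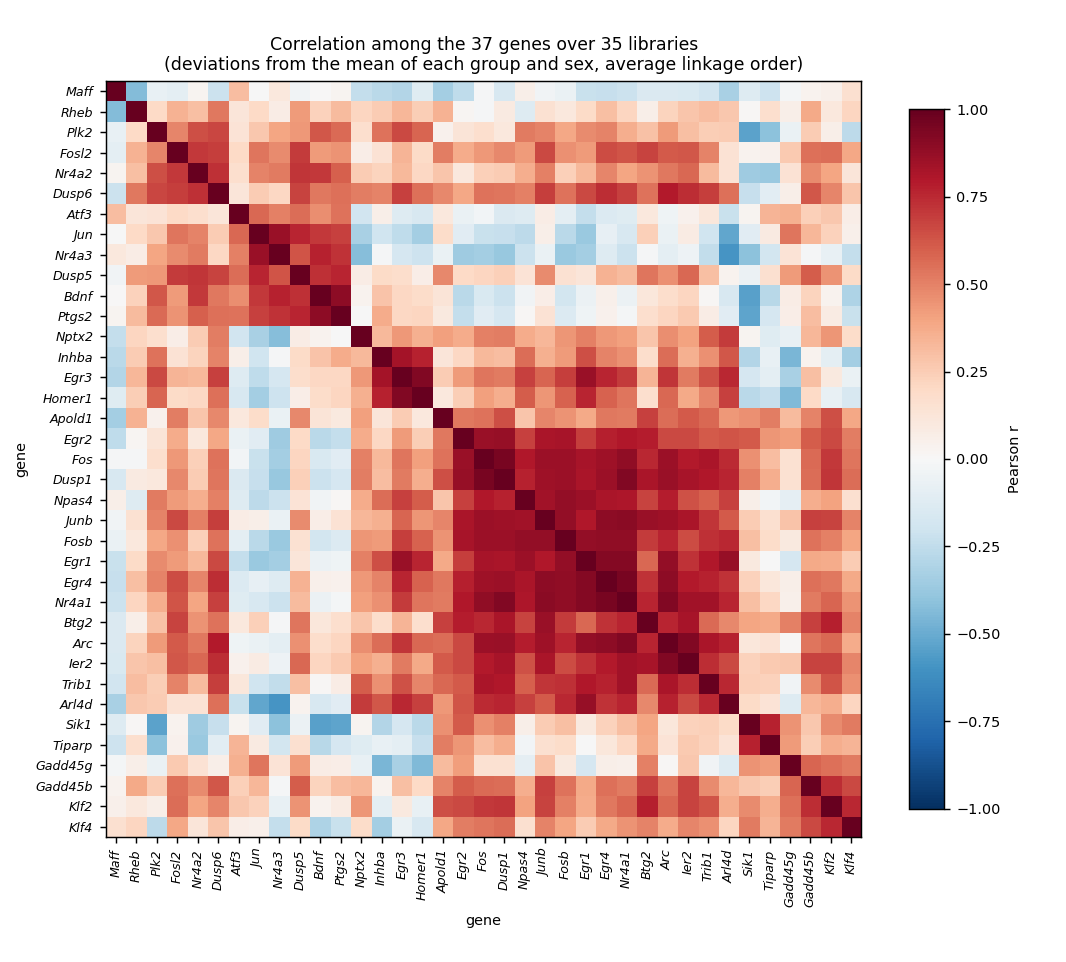
Pearson correlation between each pair of the 37 genes over 35 libraries, from deviations from the mean of each group and sex, with genes ordered by average linkage; red is positive and blue negative. The large red block runs from Egr2 and Fos (r = 0.87) to Arl4d, and a smaller one joins Jun, Nr4a3, Dusp5, Bdnf and Ptgs2. Cells of Nr4a3 with the large block are pale or blue (with Fos, −0.34), whereas those of Dusp5 are pale to red (with Ier2, 0.58).

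Some of the genes also moved with regional markers. Scores for dentate gyrus granule cells, neocortex, striatum and choroid plexus (the mean deviation over each marker list) were correlated with the 37 genes over the same libraries, with adjustment over all of these relations. Nr4a3, Jun, Bdnf, Ptgs2 and Dusp5 were the 5 genes called with the dentate gyrus score, with r of 0.78, 0.77, 0.63, 0.59 and 0.51 (adjusted permutation p from 0.0052 to 0.0402). Nr4a3, Jun, Bdnf and Dusp5 were called with the striatum score in the opposite direction, with r of −0.84, −0.80, −0.72 and −0.72. Without old nanoligomer F3 and APP/PS1 F1, the libraries farthest out on the striatum score, these r were −0.78, −0.76, −0.65 and −0.64. The neocortex score went with 12 genes, all positively: Arl4d at r = 0.85, Egr1 at 0.82, Egr3 at 0.74, Homer1 at 0.73, Arc at 0.70 and, lower, Trib1, Nr4a1, Egr4, Dusp1, Fosb, Npas4 and Fos at 0.68 to 0.56. None of the 37 was called with the choroid plexus score. Whether the share of each region in a library accounts for any of these correlations was not tested.

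**Figure D3:**
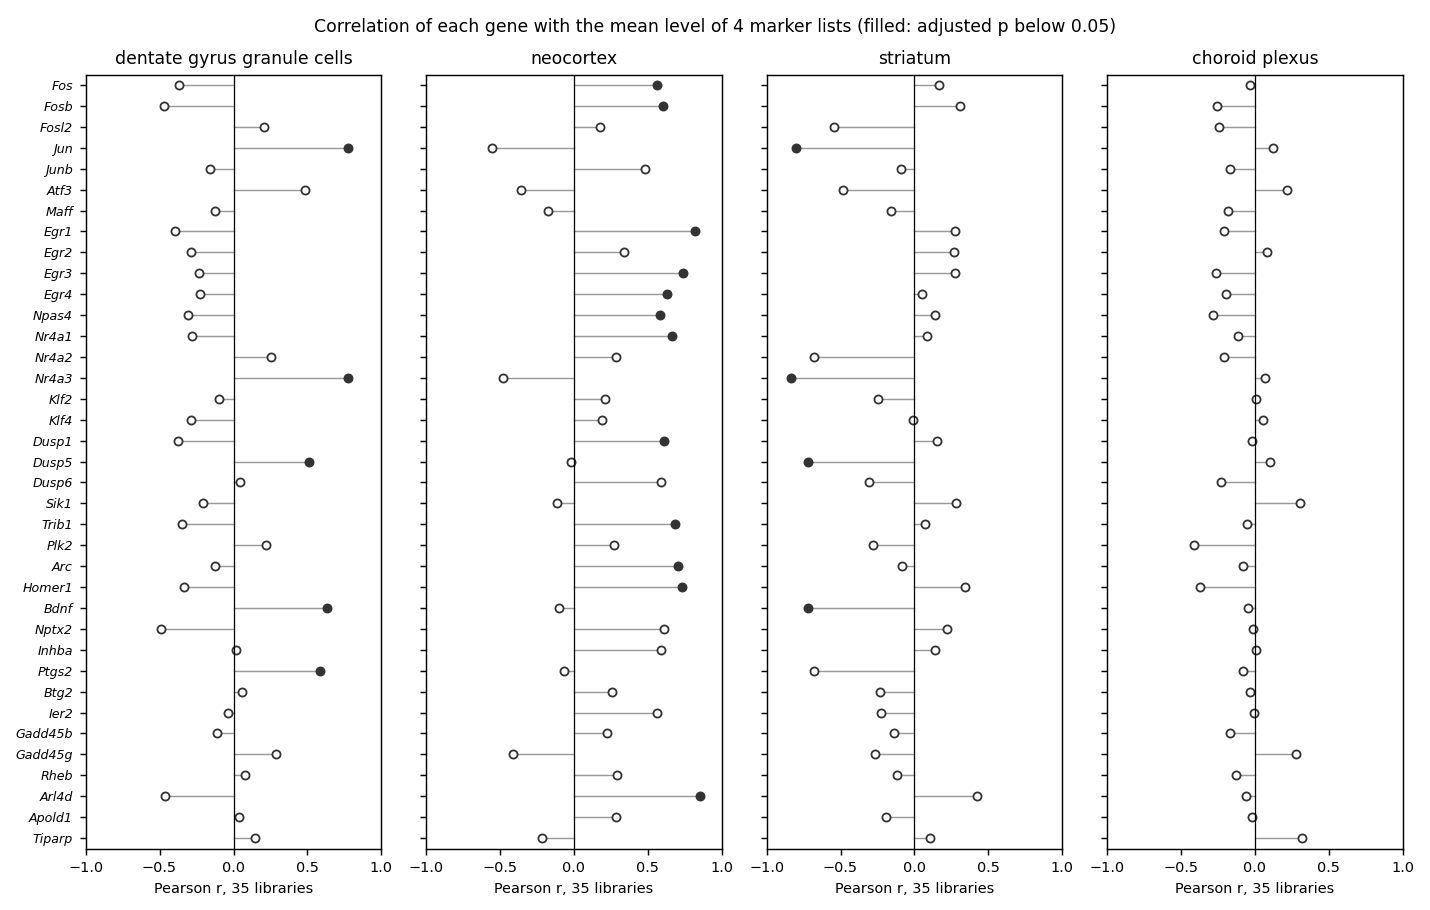
Pearson r of each of the 37 genes (rows) with the score of 4 marker lists (panels) over 35 libraries; filled points have an adjusted permutation p below 0.05 over all 4 panels. Nr4a3 and Jun lie far to the right for dentate gyrus (0.78 and 0.77) and far to the left for striatum (−0.84 and −0.80), and Egr1 (0.82) and Arl4d (0.85) lie to the right for neocortex.

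The comparison of old with young mice asks what differs over the time between 8 and 18 months of age. None of the 37 genes was called by limma (adjusted p below 0.05) or edgeR, where limma called 0.0361% of 16626 genes. The estimates lay mostly above 0: 31 of 37 were positive (median 0.29 on the log2 scale, range −0.45 to 0.68), while 48.6% of all genes were positive with a median close to 0. Gadd45b and Dusp5 reached an unadjusted p below 0.05, which is 5.41% of the 37 genes against 6.13% of all genes. Gadd45b, a stress-response gene linked to DNA demethylation at activity-regulated promoters, lay at 7.69, 9.23 and 10.3 CPM (lowest, median, highest) in young and at 8.95, 12.7 and 14.5 CPM in old mice. The groups overlapped, and 5 of 6 old libraries lay above all young ones (log2 fold change 0.41, SE 0.13, limma adjusted p = 0.635). Dusp5, a phosphatase of nuclear ERK, lay at 5.47, 12.1 and 15.2 CPM in young and 10.01, 13.3 and 16.1 CPM in old mice (0.41, SE 0.18, limma adjusted p = 0.798).

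Fos and Arc were higher in the middle of the old group but its range overlapped widely with that of the young. Fos lay at 5.16, 17.3 and 41.4 CPM in young and 6.21, 26.7 and 45.3 CPM in old mice (log2 fold change 0.48, 95% limits −0.65 to 1.61). Without old M1 the Fos estimate was 0.90 and that of Egr1 0.56. Arc lay at 85.2, 146 and 387 CPM in young and 104, 285 and 422 CPM in old mice (0.68, limits −0.15 to 1.51). Junb had an estimate of 0.54 (limits −0.14 to 1.22), Egr1 of 0.34 (−0.51 to 1.18), Bdnf of 0.29 (−0.23 to 0.81) and the neuron-specific factor Npas4 of 0.18 (−0.83 to 1.19). Limma adjusted p for these 6 ran from 0.851 for Arc to 0.966 for Npas4, and all 6 intervals included 0. The positive estimates covered all 4 Egr genes, all 6 other inducible factors and 6 of 7 AP-1 genes, but 3 of 6 synaptic effectors.

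Positive estimates stayed at 29 to 35 of 37 when each library was left out in turn. Single libraries moved the count of genes at an unadjusted p below 0.05. Without old M1, in which 7 genes were lowest of their group by a wide gap, 12 genes reached an unadjusted p below 0.05, and without young M3 9 did, against 4 without old M3 or young M1 and 1 without old F3 or young M2. Estimates of regional markers leaned with age as well: all 10 striatum markers had negative estimates in old mice (median −0.53), as did all 9 of choroid plexus (median −1.99; summed level 13.4 to 4131 CPM in young and 23.5 to 246 CPM in old libraries), whereas 7 of 8 dentate gyrus markers were positive (median 0.35). All 7 microglia markers had positive estimates (median 0.27, 5 at an unadjusted p below 0.05), as did all 6 of oligodendrocytes (median 0.20) and all 5 of CA1 (median 0.36). With neocortex, striatum and choroid plexus scores as covariates, 20 of 37 estimates were positive, and those of Egr1, Npas4 and Bdnf turned to −0.39, −0.79 and −0.44. The striatum and choroid plexus markers leaned with age themselves, so this fit cannot tell their part from that of age. The part of any marker list in the estimates of the 37 genes was not tested in any other way.

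**Figure D4:**
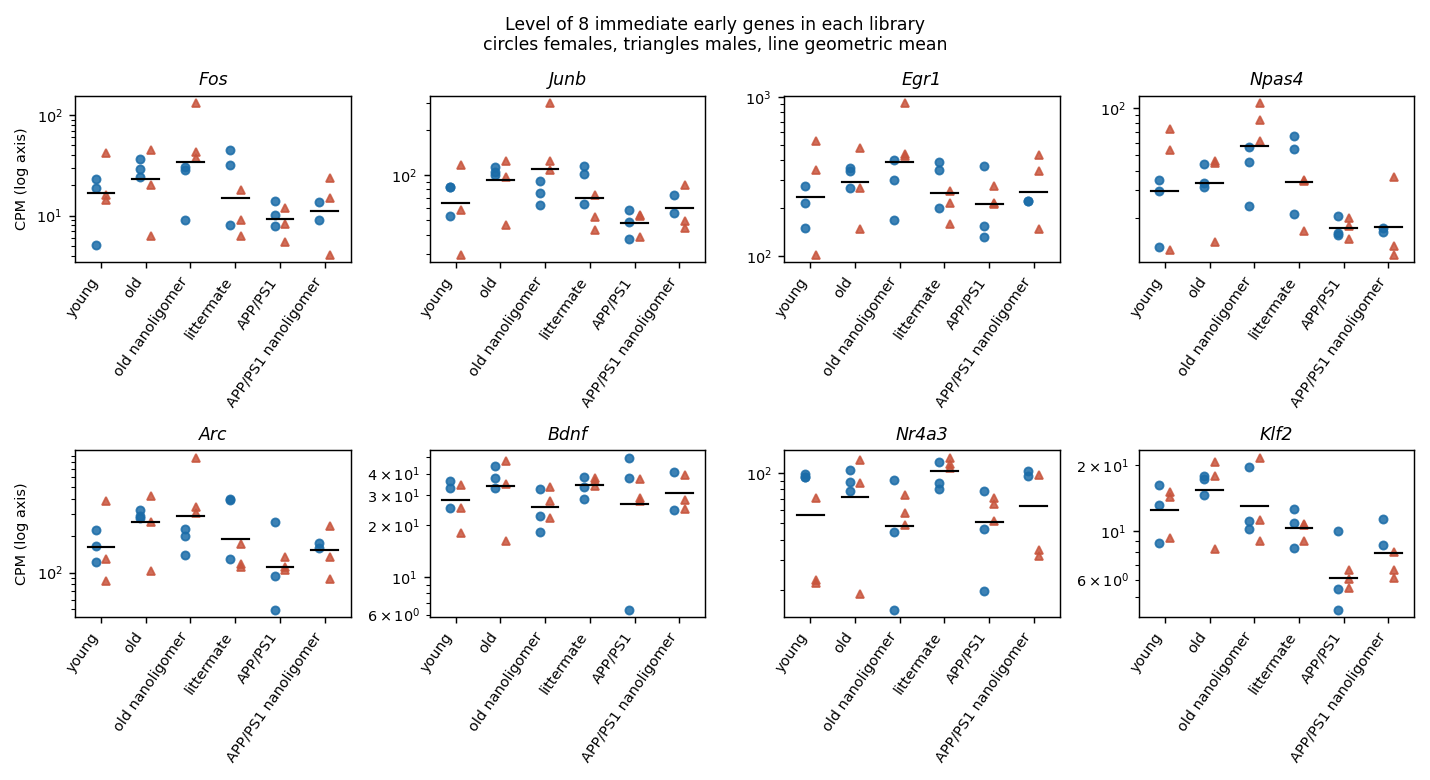
CPM (log axis) of 8 of the genes in each library of the 6 groups; circles are females, triangles males and the line is the geometric mean. Fos, Arc, Egr1 and Junb spread widely in most groups, with old nanoligomer M1 on top (131 CPM for Fos). The 6 APP/PS1 libraries lie close together for Npas4, between 14.7 and 20.5 CPM, and for Junb, between 37.6 and 58.2 CPM. Those of Nr4a3 all lie below the littermates.

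Nanoligomer in old mice was compared with the same untreated old libraries, so this comparison shares its controls with the one above. None of the 37 genes was called by limma or edgeR, where limma called 0% of 16517 genes. The estimates were divided: 22 of 37 were positive (median 0.15, range −0.58 to 0.86), against 49% of all genes. Inhba, Homer1 and Npas4 reached an unadjusted p below 0.05, all higher in treated mice, which is 8.11% of the 37 genes against 3.62% of all genes in that direction and 7.22% in both. Inhba lay at 1.36, 1.74 and 2.19 CPM in old and 1.75, 2.97 and 6.03 CPM in treated old mice (log2 fold change 0.86, SE 0.26, limma adjusted p = 0.678), and 5 of 6 treated libraries lay above all untreated ones. Homer1 lay at 50, 58.4 and 71.5 CPM in old and 55.5, 75.4 and 123 CPM in treated mice (0.39, SE 0.16, adjusted p = 0.678). The highest Inhba and Homer1 were both in old nanoligomer F3, the library with 2607 CPM of striatum markers; without it and old M3 their estimates were 0.56 and 0.28. Npas4, which controls inhibitory synapse number on excitatory neurons, lay at 13.99, 38.6 and 46.3 CPM in old and 23.9, 59.2 and 107.5 CPM in treated mice (0.77, SE 0.34, adjusted p = 0.678). The 3 genes became 7 without old M3, 5 without old nanoligomer F1 and 4 without old nanoligomer M1, and 2 without any 1 of the others except old F2.

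The estimates of Fos, Arc, Egr1 and Junb in treated old mice moved with 1 library of each group. Fos lay at 8.97, 33.8 and 131 CPM, Arc at 138, 266 and 866 CPM, Egr1 at 169, 415 and 916 CPM and Junb at 62.7, 99.5 and 299.7 CPM, and all 4 highest values were those of old nanoligomer M1. The log2 fold changes against untreated old mice were 0.57 for Fos (95% limits −0.65 to 1.78), 0.41 for Egr1 (−0.32 to 1.13), 0.23 for Junb (−0.48 to 0.94) and 0.15 for Arc (−0.70 to 0.996). Without old nanoligomer M1 they were 0.19, 0.17, −0.05 and −0.16, and 13 of 37 estimates were positive. Without old M1, the low library of the untreated group, they were 0.10, 0.14, −0.04 and −0.20, and 18 of 37 were positive. Bdnf had a negative estimate of −0.42 (limits −0.93 to 0.10), with all 6 treated libraries below the median of the untreated ones: 18.3, 25.1 and 33.3 CPM in treated against 16.2, 36.4 and 47.6 CPM in old mice (limma adjusted p = 0.698). Nr4a3, Jun, Bdnf, Ptgs2 and Dusp5, the 5 genes called with the dentate gyrus score, all had negative estimates, and 7 of 8 dentate gyrus markers were negative (median −0.85), while 9 of 10 striatum markers (median 0.61) and 10 of 11 neocortex markers (median 0.47) were positive and all 6 oligodendrocyte markers were negative (median −0.21). With the 3 regional scores as covariates (neocortex, striatum and choroid plexus, without dentate gyrus) 9 of 37 estimates were positive. Striatum and neocortex markers leaned with treatment themselves, so this fit cannot tell their part from that of treatment. The part of regional markers in the estimates of the 37 genes was not tested in any other way.

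The effect of nanoligomer in old mice was also estimated in females and males separately. The difference between the sexes in the effect of nanoligomer was called for 0 of the 37 genes and 0% of all genes (limma, lowest adjusted p = 0.914), but 11 of 37 reached an unadjusted p below 0.05, against 4.71% of all genes. All 11 had a negative estimate in females and a positive one in males: for Fos −0.59 and 1.73, for Arc −0.71 and 1.0, for Junb −0.49 and 0.95, and for Dusp1 −0.33 and 1.26. Genes picked by this difference tend to have opposite signs, and the signs of the other genes were not counted. Without old nanoligomer M1 3 genes reached that threshold, and without old M1, the low male of the untreated group, 4 did. Leaving out old F1, F2 or F3 or old nanoligomer F1 or F3 gave 5 to 7, and leaving out old nanoligomer M2 or M3 gave 16 and 15.

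**Figure D5:**
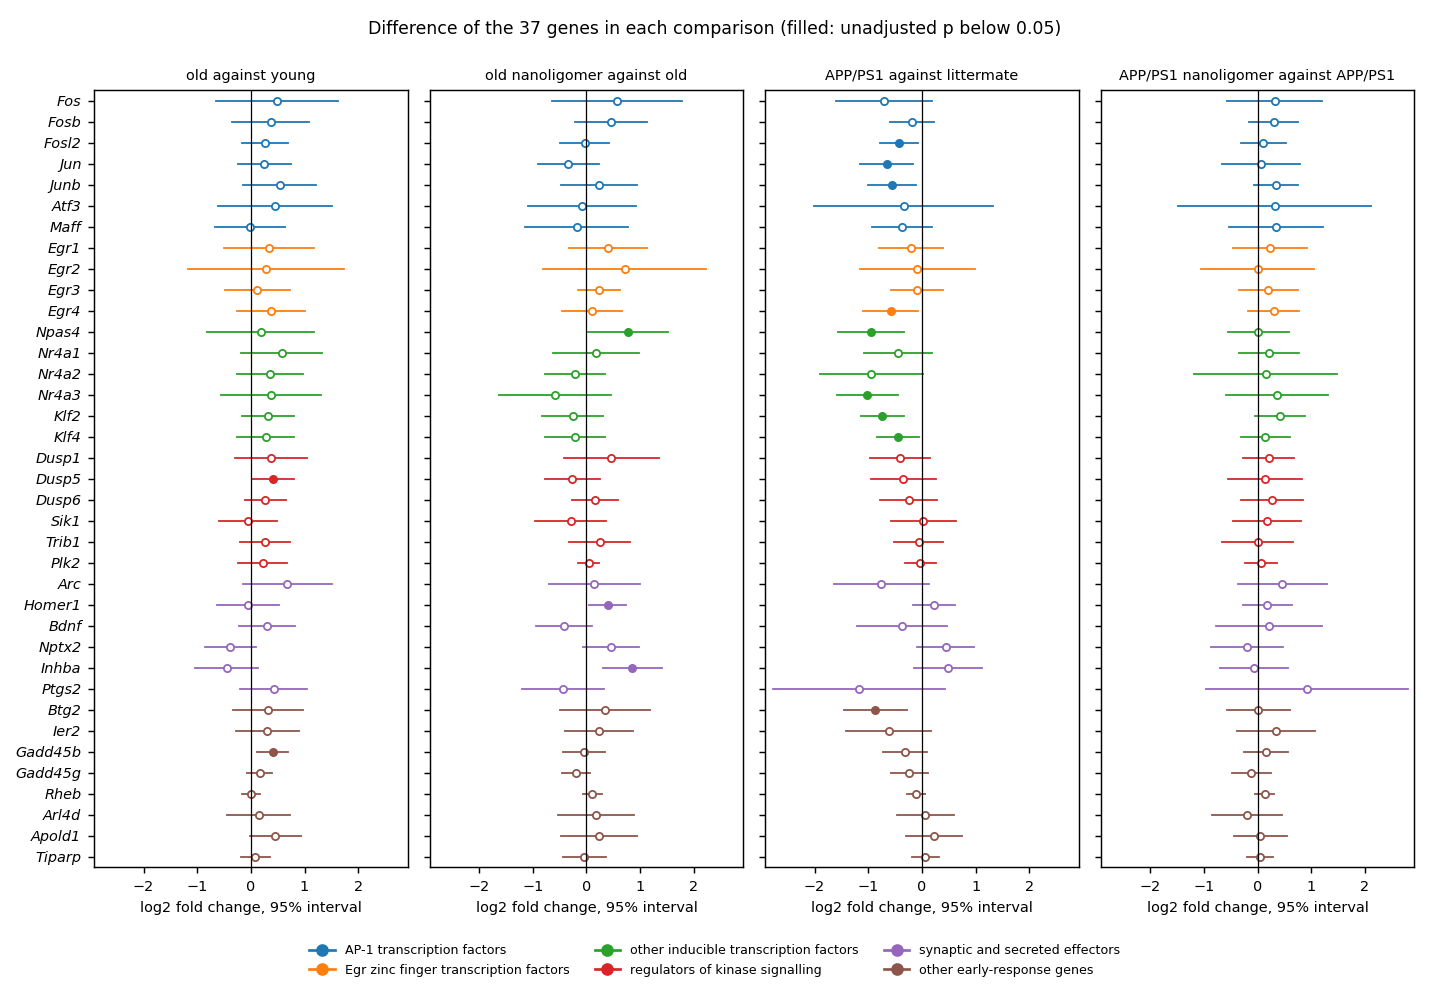
Log2 fold change with its 95% interval for each of the 37 genes (rows, coloured by role) in the 4 comparisons (panels); filled points have an unadjusted p below 0.05 and none is called after adjustment. Points lie mostly to the right in old against young (31 of 37 positive) and mostly to the left in APP/PS1 against littermate (30 of 37 negative, 9 of them filled).

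The comparison of APP/PS1 with littermate mice asks what the transgenes change at 4 months. Limma and edgeR called none of the 37 genes, where limma called 0.0486% of 16475 genes, but the estimates lay mostly below 0: 30 of 37 were negative, with a median of −0.35 and a range of −1.17 to 0.49, while 50.3% of all genes were positive. 9 of 37 genes (24.3%) reached an unadjusted p below 0.05, all lower in APP/PS1 mice, against 5.46% of all genes in that direction and 10.2% in both. Because the genes move together, 1 or a few libraries can shift both counts. DESeq2 on the recovered reads called 4 of the 37, Npas4, Nr4a3, Klf2 and Btg2, all lower in APP/PS1 mice (adjusted p of 0.0108, 0.0169, 0.0344 and 0.0471), where it called 1.42% of all genes. In the other 3 comparisons it called none of the 37, where it called 0.788% of all genes for age, 0.0096% for treatment in old mice and 0.0385% for treatment in APP/PS1 mice. The negative estimates included all 7 AP-1 genes (median −0.43), all 4 Egr genes (−0.15) and all 6 other inducible factors (−0.84), but 3 of 6 synaptic and secreted effectors.

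Nr4a3 was the gene whose groups did not overlap, as was the case for 0.413% of all genes in that direction and 0.85% in both; in the other comparisons the groups overlapped for all 37 genes, where they did not for 0.505% (age), 0.254% (treatment in old mice) and 0.31% (treatment in APP/PS1 mice) of all genes. It lay at 19.7, 58.8 and 78.4 CPM in APP/PS1 and at 80.5, 110.5 and 124 CPM in littermate mice (log2 fold change −1.02, SE 0.26, limma adjusted p = 0.215), so every APP/PS1 library lay below every littermate. Npas4 lay at 14.7, 17.00 and 20.5 CPM in APP/PS1 and at 16.6, 34.8 and 66.2 CPM in littermate mice (−0.96, SE 0.28, limma adjusted p = 0.259), and all 6 APP/PS1 libraries lay below the median of the littermates. Klf2, a Krüppel-like factor expressed in neurons and in endothelium, lay at 4.38, 5.75 and 9.97 CPM in APP/PS1 and 8.36, 10.7 and 12.6 CPM in littermate mice (−0.74, SE 0.19, limma adjusted p = 0.211). Its 5 lower APP/PS1 libraries lay below all littermates, and APP/PS1 F3 did not. Btg2, an antiproliferative gene and immediate early target, lay at 6.89, 10.7 and 13.5 CPM in APP/PS1 and 12.3, 16.3 and 36 CPM in littermate mice (−0.87, SE 0.27, limma adjusted p = 0.297), with 4 of 6 APP/PS1 libraries below all littermates.

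The other genes at an unadjusted p below 0.05 were the AP-1 subunits Jun, Junb and Fosl2, Egr4 and Klf4. Jun lay at 53.2, 86.3 and 167 CPM in APP/PS1 and 105, 141 and 184 CPM in littermate mice (−0.66, SE 0.22), with 5 of 6 APP/PS1 libraries below all littermates. Junb lay at 37.6, 50.9 and 58.2 CPM against 43.3, 68.7 and 114.5 CPM (−0.56, SE 0.21), and Fosl2 at 27.1, 39.9 and 45.9 CPM against 36.4, 53.1 and 65.4 CPM (−0.43, SE 0.17). Egr4 had an estimate of −0.59 (SE 0.23) and Klf4 of −0.45 (SE 0.18); limma adjusted p of these 5 genes ran from 0.344 to 0.408. Fos and Arc had estimates of −0.70 (95% limits −1.59 to 0.19) and −0.76 (−1.65 to 0.13) that did not reach that threshold. Fos lay at 5.53, 9.22 and 13.9 CPM in APP/PS1 and 6.22, 13.4 and 45.2 CPM in littermate mice, where littermate F2 and F3 stood at 32.1 and 45.2 CPM and the other 4 littermates at 6.22 to 17.8 CPM. Egr1 had an estimate of −0.21 (−0.81 to 0.38) and Bdnf of −0.37 (−1.21 to 0.47), the latter 0.07 without APP/PS1 F1.

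Estimates of regional markers leaned in this comparison too. Of the dentate gyrus markers 7 of 8 had negative estimates (median −0.92, 6 at an unadjusted p below 0.05; summed level 168 to 302 CPM in APP/PS1 and 234 to 330.0 CPM in littermate libraries), all 10 striatum markers were positive (median 1.10; 203 to 2370 CPM and 207 to 234 CPM), all 9 choroid plexus markers were negative (median −0.92), and 6 of 11 neocortex markers were positive (median 0.41; 356 to 1061 CPM and 438 to 683 CPM). All 5 erythrocyte markers had negative estimates (median −0.46, 3 at an unadjusted p below 0.05), as most of the 37 genes did, and their part was not tested. With neocortex, striatum and choroid plexus scores as covariates, 15 of 37 estimates were positive, 4 genes reached an unadjusted p below 0.05, and the estimates were −0.41 for Nr4a3, −0.16 for Jun, −0.24 for Klf2 and −0.95 for Npas4. The striatum and choroid plexus markers leaned with the transgenes, so this fit cannot tell their part from that of the transgenes. Without APP/PS1 F1, the library with 2370 CPM of striatum markers, Nr4a3 had an estimate of −0.75 and Klf2 of −0.61. Without APP/PS1 F3, limma called Klf2, Nr4a3 and Jun (log2 fold changes −0.89, −1.21 and −0.87, adjusted p of 0.0153, 0.0265 and 0.0192), where it then called 1.56% of all genes. With limma library weights, which give less weight to libraries that stand apart, Klf2, Nr4a3 and Jun were called lower and Nptx2 higher (adjusted p of 0.0123, 0.0078, 0.0173 and 0.0477), against 3.33% of all genes.

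Nanoligomer in APP/PS1 mice was compared with the same untreated APP/PS1 libraries, 5 against 6. None of the 37 genes was called by limma or edgeR, where limma called 0% of 16124 genes, and none reached an unadjusted p below 0.05, against 2.96% of all genes; without APP/PS1 F2 4 did, without APP/PS1 nanoligomer M3 2 and without APP/PS1 F3 1. The estimates were small and mostly positive: 32 of 37, with a median of 0.17 and a range of −0.20 to 0.92, while 49.4% of all genes were positive. Junb lay at 44.2, 56.04 and 85.5 CPM in treated and 37.6, 50.9 and 58.2 CPM in untreated mice (log2 fold change 0.35, 95% limits −0.06 to 0.76). Fos lay at 4.08, 13.7 and 23.7 CPM in treated and 5.53, 9.22 and 13.9 CPM in untreated mice (0.32, limits −0.56 to 1.21). Arc had an estimate of 0.46 (−0.37 to 1.30), Egr1 of 0.24 (−0.45 to 0.93), Bdnf of 0.20 (−0.78 to 1.19) and Npas4 of 0.02 (−0.55 to 0.58), and limma adjusted p was 0.997 for all 6. Without the libraries rich in striatum markers, APP/PS1 F1 and APP/PS1 nanoligomer M2, 21 of 37 estimates were positive, and with the low-depth library kept in, 15 were. All 9 choroid plexus markers were higher in treated libraries by estimate (median 2.57, 8 at an unadjusted p below 0.05), as were all 5 of erythrocytes (median 0.44). All markers of striatum (10), endothelium (9), microglia (7), astrocytes (6) and oligodendrocytes (6) were lower by estimate, with medians from −0.35 for striatum to −0.12 for endothelium. The part of these shifts in the 32 positive estimates was not tested.

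A joint limma fit of both treatment comparisons, 23 libraries with no library in common between them, tested whether nanoligomer acted differently in old and APP/PS1 mice. These mice differed in age (18 and 4 months) and in the transgenes at once, which cannot be told apart here. None of the 37 genes was called, as was 0% of 15990 genes (lowest adjusted p among the 37 genes 0.918). Inhba had the smallest unadjusted p, with 0.86 in old and −0.07 in APP/PS1 mice (difference −0.93, 95% limits −1.76 to −0.10), and was the only 1 of the 37 below 0.05, against 4.35% of all genes. Klf2 had −0.26 in old and 0.42 in APP/PS1 mice (difference 0.68, limits −0.08 to 1.43). In the other 3 comparisons the difference between the sexes in the group effect was called for none of the 37 genes. There, 3, 4 and 1 genes reached an unadjusted p below 0.05 for age, for the transgenes and for nanoligomer in APP/PS1 mice, against 4.39%, 5.1% and 4.52% of all genes.

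The genes that carry the signal to the nucleus were read from a list of 37 receptors, channels, kinases and transcription factors, all of them tested and none called by limma or edgeR in any comparison; DESeq2 called Camk2b lower in APP/PS1 mice (log2 fold change −0.27, adjusted p = 0.0351) and no other. In APP/PS1 against littermate mice 9 of them (24.3%, against 10.2% of all genes) reached an unadjusted p below 0.05, 3 higher and 6 lower. Among these were Camk2b, a subunit of the calcium-dependent kinase of the synapse, at −0.28 (SE 0.08), Cacna1c, the pore of the L-type calcium channel, at −0.35 (SE 0.10), and Gria1, an AMPA receptor subunit, at −0.40 (SE 0.13), while Camk2d was at 0.63 (SE 0.20). In treated old mice 5 did (13.5%, against 7.22%), with the CREB family member Crem at 0.36 and Mef2c at 0.70 higher and the CREB coactivator Crtc1 at −0.19 lower. In the age comparison 4 did (10.8%, against 6.13%), among them Rps6ka2 at −0.22 and Elk4, a partner of serum response factor, at 0.18, and in treated APP/PS1 mice 2 did (5.41%, against 2.96%), Map2k1 at 0.18 and Camk2d at −0.53. Median estimates of the list were −0.07 for the transgenes, −0.05 for treatment in old mice, 0.05 for age and 0.06 for treatment in APP/PS1 mice. Of 34 further activity-regulated genes, 33 were measured and none was called by limma or edgeR, while DESeq2 called Vgf and Penk higher in APP/PS1 mice (log2 fold changes 0.38 and 2.02, adjusted p of 0.000622 and 0.0351). For the transgenes 17 of the 33 estimates were positive (median 0.08), and 7 genes (21.2%, against 10.2%) reached an unadjusted p below 0.05, all higher in APP/PS1 mice. Vgf, a secretory granule protein, was at 0.38 (SE 0.07, limma adjusted p = 0.119), the enkephalin precursor Penk at 1.80 (SE 0.46), Sorcs3 at 0.30 and Syt4 at 0.28. In treated old mice 6 of the 33 did (18.2%, against 7.22%), among them Frmd6 at 0.42, Baz1a at 0.82 and Dusp4 at −0.64, in the age comparison only Csrnp1 at 0.41 (3.03%, against 6.13%), and in treated APP/PS1 mice none. Penk is abundant in striatal neurons, and striatum markers were higher by estimate in the same comparison, as given above; their part in its value was not tested.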

How the data were processed

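RNA of 36 hippocampus libraries was measured by polyadenylated RNA sequencing (TruSeq, NovaSeq, per the labels' protocols). The authors deposited 4 tables of 12 libraries each, holding counts divided by size factors, that is a signal scaled within each table. STAR, DESeq2 and mm10 are named, without roles, in the submitters' processing notes. The sources used here give no versions, read counter or strand setting, so whether overlapping antisense genes are separated is not known. Whole reads were recovered from the common step of each library: 100% of values lay within 0.001 reads of a whole number, and 12 libraries stand in 2 tables with identical reads. No column of values was left out (0). The column of APP/PS1 nanoligomer M3 and the title of that sample differ by 1 letter; no other column of the group lacked a sample.

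Within each table limma 3.58.1 (R 4.3.3) was fitted with an intensity trend to log2(normalized count + 1) for genes averaging 10 or more, with factors for sex and group and Benjamini-Hochberg adjustment over all genes; calls are at an adjusted p below 0.05. Fold changes are on that scale and understate the change of low genes. Recovered reads were tested with edgeR 4.0.16 (quasi-likelihood) and DESeq2 1.42.0; edgeR called 6, 0, 8 and 0 genes and DESeq2 136, 2, 260 and 8 in the order age, treatment in old mice, transgenes, treatment in APP/PS1 mice. CPM are recovered reads per 1000000 reads; RPKM divide by the exon length of GENCODE on GRCm38. Correlations used 100000 permutations within group and sex. The test was checked on simulated data, with the changed genes drawn at random from all genes tested. Counts of each gene were drawn independently, so shifts shared by many genes of a library were not simulated. More genes were changed than limma called in the real data, which makes the adjusted threshold easier to pass. In the 4 comparisons the test recovered 76%, 78%, 70% and 68% of genes raised 2-fold, with 9, 12, 7 and 5 unchanged genes called. It recovered 60%, 62%, 58% and 24% of those raised 1.5-fold and 44%, 53.1%, 46% and 34% of those lowered to 0.667 of their level. The 37 genes varied more within groups (median coefficient of variation 0.352 against 0.131). These shares may therefore be lower for them, which was not simulated.

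The genes and lists were chosen with earlier results of these data known. Fos, Arc, Egr1, Npas4, Junb and Bdnf were named in every comparison, with up to 10 others with an unadjusted p below 0.05 and up to 4 of each other list by smallest p. Alternatives covered filter, pseudocount, scaling, trend, weights, sex term, replicate block, count tools, regional covariates and leaving out each library; leaving out libraries over 500 CPM of striatum markers, the counts of positive and unadjusted estimates, the anchors Nr4a3 and Homer1, and the correlations with regional scores were added after seeing the data.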

Additional observations from a re-analysis of the deposited data

Results flagged for a closer look

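Over the 37 genes and 6 groups, 32 of 222 sets of 5 or 6 libraries held a library farther from its neighbour than Dixon's test allows, that is 14.4% where chance gives about 5%, and they came from 8 libraries. The same library counts repeatedly, since the genes move together.

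Old nanoligomer M1 stood above the rest of its group in 7 genes: Btg2 at 92.2 CPM (the others at most 27.4), Trib1 at 47.4, Ier2 at 33.7, Tiparp at 21.8, Gadd45b at 21.0, Apold1 at 15.1 (the others at most 5.28) and Rheb at 70.6 CPM. It stood below its group in Maff, at 0.191 CPM against at least 1.17.

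Old M1 stood below the other old libraries in 7 genes: Arc at 104 CPM, Nr4a1 at 52.7, Junb at 46.2, Dusp6 at 36.1, Npas4 at 14.0, Btg2 at 9.29 and Egr2 at 0.687 CPM. The others held at least 259.5 CPM of Arc and 96.8 CPM of Junb.

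APP/PS1 F1, with 2370 CPM of striatum markers, was low in 6 genes: Plk2 at 103 CPM, Dusp6 at 20.5, Nr4a2 at 7.61 (the others at least 55.9), Bdnf at 6.42 (at least 27.6), Ier2 at 2.43 and Ptgs2 at 0.441 CPM (at least 8.92). Old M3, with 696 CPM of striatum markers, was low in Jun at 57.9, Nr4a3 at 18.9 and Bdnf at 16.2 CPM, and high in the synaptic pentraxin gene Nptx2 at 53.6 CPM. The part of neighbouring tissue in these values was not tested.

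Of the rest, APP/PS1 F3 was high in Atf3 at 2.26 and Maff at 1.96 CPM. APP/PS1 nanoligomer F2 was high in Klf4 at 10.2 and low in Plk2 at 146 CPM. Young M1 was low in Plk2 at 66.9 CPM, and young M2 was low in Gadd45g at 10.5 and Atf3 at 0.201 CPM. After adjustment no gene of the 37 had a group effect that differed between the sexes, or a nanoligomer effect that differed between the treatment comparisons. The difference in level between females and males was not tested.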

How the results depend on the processing

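For age, treatment in old mice and treatment in APP/PS1 mice, no alternative called any of the 37 genes. For the transgenes, library weights and DESeq2 called 4 each, and leaving out single libraries gave 0 to 3, the 3 without APP/PS1 F3. Of 875 gene estimates under alternatives, 835 kept direction and side of the threshold, 30 turned and 10 crossed the threshold. The cause was not tested for any of them.

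Regional scores as covariates turned Egr1 (−0.39), Npas4 (−0.79) and Bdnf (−0.44) for age; Fos (−0.36), Arc (−0.45), Egr1 (−0.23) and Junb (−0.21) in treated old mice; and Bdnf (0.33) for the transgenes. They gave 20, 9 and 15 positive estimates in these comparisons, and 4, 4 and 1 genes at an unadjusted p below 0.05 for age, transgenes and treatment in APP/PS1 mice. Library weights turned Egr1 for the transgenes (0.075) and Bdnf in treated APP/PS1 mice (−0.028). Keeping the low-depth library turned Fos (−0.35), Arc (−1.54), Egr1 (−0.82), Npas4 (−0.42) and Junb (−1.44), with 15 positive. Without libraries rich in striatum markers Bdnf turned for the transgenes (0.071) and in treated APP/PS1 mice (−0.15), with 21 positive there and 6 genes at an unadjusted p below 0.05 in treated old mice.

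The number of genes at an unadjusted p below 0.05 was 1 without the trend, without the sex term and with edgeR for age, 6 with weights and 5 with DESeq2 in treated old mice, and 1 with weights in treated APP/PS1 mice. For sex differences it was 18 with weights for age, 6 without the trend in treated old mice, 2 without the trend and 8 with weights for the transgenes, and 3 with weights in treated APP/PS1 mice. In the transgenic arm alone 11 genes followed Fos.

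Same-numbered libraries correlated at r from −0.25 to 0.29 over 23 pairs, not all above 0.1, so the numbers were not taken to pair them. With a replicate block no gene was called (0 in each comparison), 7 genes for age and 2 in treated APP/PS1 mice reached an unadjusted p below 0.05, and Npas4 in treated APP/PS1 mice was at −0.00033.

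Leaving out each library in turn gave, for age, treatment in old mice, transgenes and treatment in APP/PS1 mice, 1 to 12, 2 to 7, 6 to 13 and 0 to 4 genes at an unadjusted p below 0.05, and 1 to 7, 3 to 16, 0 to 11 and 0 to 6 for sex differences. Positive estimates ran from 29 to 35 for age and from 13 to 25 in treated old mice. They ran from 5 to 11 for the transgenes and from 23 to 33 in treated APP/PS1 mice. Estimates ran from −0.14 to 0.48 for Npas4 with age, from −0.20 to 0.33 for Arc and −0.052 to 0.37 for Junb in treated old mice, from −0.60 to 0.071 for Bdnf with the transgenes, and from −0.25 to 0.17 for Npas4 and −0.19 to 0.40 for Bdnf in treated APP/PS1 mice.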

Other observations

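Genes of the glucocorticoid and heat shock response, which handling is known to move, were read beside the immediate early genes. None of the 15 was called by limma or edgeR in any comparison; DESeq2 called Ddit4 (log2 fold change −0.37, adjusted p = 0.0341) and Cdkn1a (0.59, adjusted p = 0.0498) for the transgenes and no other. Ddit4, a glucocorticoid-responsive inhibitor of mTOR signalling, was at −0.38 (SE 0.09, limma adjusted p = 0.210) for the transgenes, −0.39 (SE 0.09, adjusted p = 0.678) in treated old mice and 0.34 (SE 0.10, adjusted p = 0.535) for age. Of the 15 genes, 12 had negative estimates for the transgenes (median −0.15) and 14 had positive ones in treated APP/PS1 mice (median 0.12). Of the 37 immediate early genes, 30 were negative for the transgenes and 32 positive in treated APP/PS1 mice. Of all genes, 50.3% and 49.4% were positive. Both comparisons share the APP/PS1 libraries, so their signs are not independent. For age 10 of the 15 were positive (median 0.10) and in treated old mice 11 (median 0.07), where 31 and 22 of the 37 genes were. Of all genes, 48.6% and 49% were positive there. Fkbp5, a direct target of the glucocorticoid receptor, was at −0.26 (SE 0.12) for the transgenes, and the cell cycle inhibitor Cdkn1a at 0.58 (SE 0.16). The sources used here do not give collection times or handling, and the part of handling in these values was not tested.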
